A study of Schizosaccharomyces pombe with 12 samples.

Results

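A set of 10 genes of sugar uptake and glucose repression were followed across the RNA of fission yeast (Schizosaccharomyces pombe) that carried mutations in a transcription termination factor and in inositol pyrophosphate enzymes. They were chosen by identifier, as 10 of the 6986 genes of the deposited count table. The hexose transporters were ght1 (SPCC548.07c), ght2 (SPBC4B4.08), ght3 (SPAC1F8.01), ght4 (SPBC1683.08), ght5 (SPCC1235.14), ght6 (SPCC1235.13) and ght8 (SPCC548.06c). The glucose-repressed enzymes were fbp1 (SPBC1198.14c), inv1 (SPCC191.11) and gld1 (SPAC13F5.03c). Poly(A)+ RNA was sequenced from 4 genotypes with 3 replicate libraries each: wild type (WT), ssu72-C13S, asp1-H397A, and the triple mutant asp1-H397A ssu72-C13S aps1∆. All strains were grown at 30 °C in YES, a rich medium that contains glucose, and taken in log phase, and the labels give the growth stage as vegetative. Ssu72 is a phosphatase of the RNA polymerase II tail that belongs to the 3′ processing machinery, and C13S changes its catalytic cysteine. Asp1 both makes and removes inositol pyrophosphates, and H397A lies in the domain that removes them. Aps1 is another enzyme that removes inositol pyrophosphates. Each genotype is 1 strain by its lab strain number, no strain with the aps1 deletion alone was among the samples, and the labels do not say whether the replicates were separate cultures, so p-values measure the spread between these libraries, which may be technical.

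Fission yeast takes up hexoses through the Ght family of membrane transporters. Ght5 is the high-affinity glucose transporter that cells need to proliferate when glucose is scarce, and Ght3 is known as a gluconate transporter. While glucose is plentiful, signalling through a G protein and cAMP activates protein kinase A, which holds the activator Rst2 in check, and the repressor Scr1 keeps genes such as inv1, fbp1 and gld1 low. When glucose runs out the AMP-activated kinase Ssp2 drives Scr1 out of the nucleus and these genes are induced. Invertase, made from inv1, splits sucrose outside the cell, the fructose-1,6-bisphosphatase made from fbp1 is specific to gluconeogenesis, and the glycerol dehydrogenase made from gld1 starts the use of glycerol.

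The libraries held 23115806 to 29124916 counts, so a gene with no counts in a library could still be present at up to 3 counts, which is 0.103 to 0.130 CPM (counts scaled to library size). CPM below are scaled by the trimmed mean of M values (TMM). The libraries asp1-H397A replicate 3 and triple mutant replicate 1 stood apart from the other libraries of their genotypes, with a median absolute log2 difference of 0.250 and 0.211 from the rest of the group against 0.0479 to 0.152 for the other libraries. The targeted gene aps1 was at 112 ± 9.20 CPM in WT (SD, n = 3) and 38.9 ± 2.08 CPM in the triple mutant, 2.89-fold lower (edgeR's quasi-likelihood test, adjusted p = 1.67e-09) and above 0 in each of its libraries. Which stretch of aps1 was deleted is not given in the sources used here, and the point mutations of ssu72 and asp1 cannot be read from counts. Reads of stress genes were highest in ssu72-C13S: 10 stress genes summed to between 5355 and 5488 CPM there, against 3035 to 3283 in WT, 3013 to 3425 in asp1-H397A cells and 2385 to 2931 in the triple mutant, and none of them was at 0. Among them gpd1 was the most abundant in every genotype and weighed most in the sums. Its mean was 1161 CPM in WT, 2756 in ssu72-C13S cells, 1928 in asp1-H397A cells and 2037 in the triple mutant. The sums therefore say less about the other stress genes, whose changes are given below. The summed level of 8 genes of mating and meiosis was 245 to 271 CPM in WT, 131 to 139 in ssu72-C13S cells, 199 to 245 in asp1-H397A cells and 126 to 135 in the triple mutant, again with none at 0.

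The 3 mutants changed the 10 genes in different ways. In ssu72-C13S 7 rose and only gld1 fell. In asp1-H397A the high-affinity transporter ght5 fell 3.96-fold while ght2 rose 1.93-fold. In the triple mutant ght5 and ght1 were low while fbp1 was at its highest. A gene was called changed at an adjusted p under 0.05 by edgeR's quasi-likelihood test over the 6189 genes that passed the filter on low counts. All 10 genes passed that filter. Of these, 9 were over its floor of 0.391 CPM in all 12 libraries, whereas ght6 was over it in all 3 ssu72-C13S libraries, 1 of WT, 1 of asp1-H397A and 0 of the triple mutant, and so entered the test through the genotype where it was highest.

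The counts of changed genes have to be read against a wide background of change. In ssu72-C13S against WT 8 of the 10 were called, where 54.7% of all genes tested were. The 7 that rose compare with 25.5% of all genes called higher, gld1 as the 1 that fell compares with 29.1% called lower, and the median log2 fold change of the 10 was 0.75 against -0.04 for all genes. In asp1-H397A against WT 5 were called, where 44.4% of all genes were, 2 of them higher (25.8% of all genes) and 3 lower (18.6%), with a median of -0.03 against -0.00. In the triple mutant against WT 9 were called, where 51.9% of all genes were, 4 of them higher (26.2% of all genes) and 5 lower (25.7%), with a median of -0.11 against -0.01. The 5 include ght6, which entered the test through ssu72-C13S, so its call is a description only. Without the 2 libraries that stood apart the counts were 10, 6 and 9, where 72.5%, 73% and 70.2% of all genes were called. The 10 and the 9 again include ght6. The libraries of mutant and WT did not overlap for all 10 genes in ssu72-C13S (74.1% of all genes), for 6 in asp1-H397A (49.2%), and for 9 in the triple mutant (59%).

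**Figure D1:**
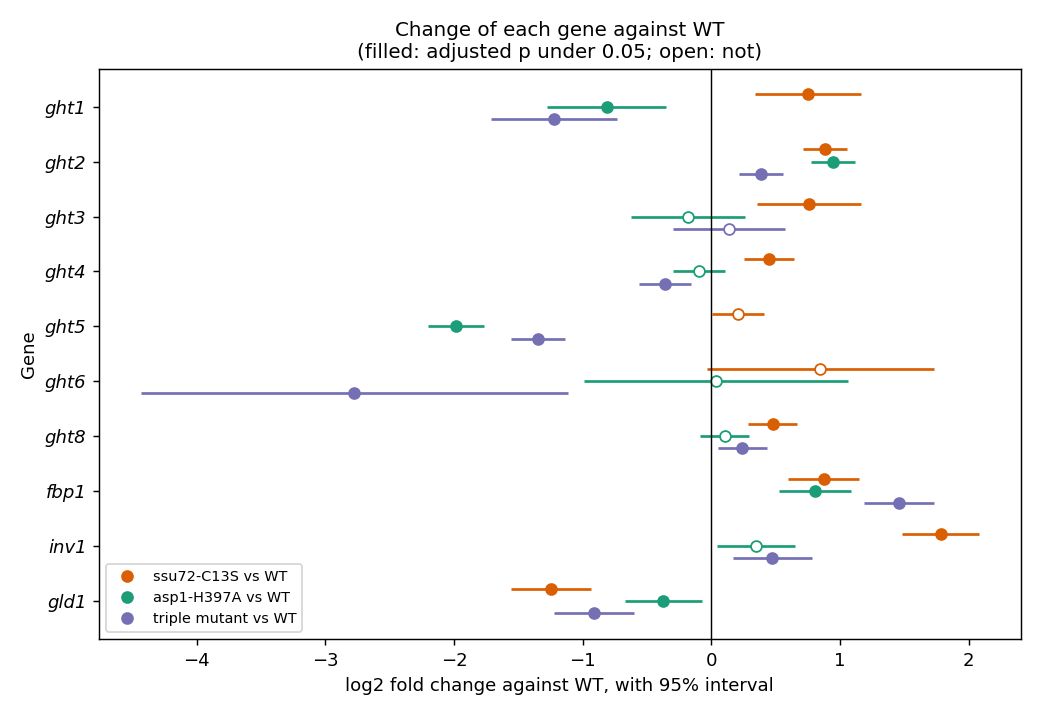
Log2 fold change against WT of each gene (horizontal axis) with its 95% interval (bars), for ssu72-C13S, asp1-H397A and the triple mutant; filled points have an adjusted p under 0.05 and open points do not. ght5 lies at -1.99 in asp1-H397A, with -1.35 in the triple mutant, inv1 lies at 1.78 in ssu72-C13S, and the interval of ght6 in the triple mutant is the widest in the plot.

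ght8, ght5 and ght2 made up nearly all of the hexose transporter RNA in every genotype. Levels of different genes were compared as CPM per kilobase of spliced transcript. In WT the order was ght8 at 394 ± 13.4, ght5 at 125 ± 5.33 and ght2 at 80.7 ± 6.06 (mean ± SD, n = 3), with each step larger than the spread. The enzymes and the other transporters followed at far lower levels: gld1 at 4.45 ± 0.486, ght4 at 3.82 ± 0.110, inv1 at 2.69 ± 0.360, fbp1 at 2.23 ± 0.419, ght1 at 1.60 ± 0.282, ght3 at 1.47 ± 0.169 and ght6 at 0.169 ± 0.0388. Within that lower order the ranges of mean ± SD of neighbours overlapped for inv1 and fbp1, for fbp1 and ght1, and for ght1 and ght3.

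The sum over the 7 transporters was similar in 3 genotypes while its makeup was not. It was 607 ± 24.0 CPM per kilobase in WT, 616 ± 55.0 in asp1-H397A cells and 626 ± 58.4 in the triple mutant, and the ranges of these genotypes overlapped. In ssu72-C13S it was 853 ± 44.9, and its lowest library, at 801, was above the highest of any other genotype, at 671. The share of ght5 in the sum was 20.6% ± 0.199 in WT, 16.9% ± 0.739 in ssu72-C13S cells, 5.11% ± 0.343 in asp1-H397A cells and 7.86% ± 0.232 in the triple mutant. ght2 took the opposite course in asp1-H397A cells, with a share of 25.3% ± 0.446 against 13.3% ± 0.504 in WT, 17.4% ± 0.333 in ssu72-C13S cells and 16.9% ± 1.58 in the triple mutant. The share of ght8 was 64.9% ± 0.570 in WT, 64.4% ± 0.804 in ssu72-C13S cells, 68.6% ± 0.444 in asp1-H397A cells and 74.4% ± 1.56 in the triple mutant. In asp1-H397A and the triple mutant ght2, not ght5, was therefore the second transporter by level, at 156 ± 11.2 against 31.6 ± 4.54 and at 105 ± 7.57 against 49.1 ± 4.02 CPM per kilobase. These sums and shares are given as values with no test.

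**Figure D2:**
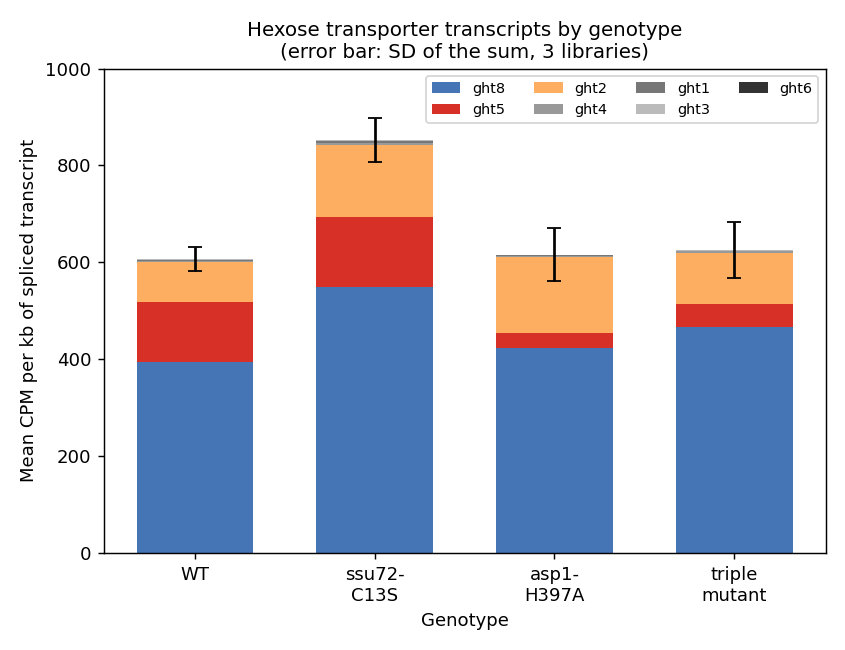
Mean CPM per kilobase of spliced transcript (vertical axis) of the 7 hexose transporters, stacked for each genotype; the error bar is the SD of the sum over 3 libraries. The ght5 band shrinks from 20.6% of the sum in WT to 5.11% in asp1-H397A, and the ssu72-C13S bar stands above the others at 853.

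Some of the transporters share sequence, which bears on how their reads were assigned. In the RefSeq genome (ASM294v3) 596 of the 2015 stretches of 50 bases in ght5, or 29.578%, also occur in ght8, which is 24.218% of those in ght8. ght3 shares 212 such stretches with ght4, and ght1 shares 147 with ght8 and 134 with ght5. None of the stretches in ght2, fbp1, inv1 or gld1 occurs a second time in the genome. How the authors' counting treated reads with several matches is not given in the sources used here, so the levels of ght5, ght8, ght1, ght3, ght4 and ght6 carry that uncertainty.

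ght5 fell in both genotypes with asp1-H397A. It was at 253, 251 and 271 CPM in the WT libraries, at 298, 325 and 272 in ssu72-C13S cells, at 61.2, 75.9 and 58.5 in asp1-H397A cells and at 93.0, 102 and 110 in the triple mutant. Every library with the asp1 mutation was far below every library without it, and the 3 triple mutant libraries lay above all asp1-H397A libraries. The log2 fold change against WT was -1.99 ± 0.10 in asp1-H397A (SE; adjusted p = 1.01e-08), against -1.35 ± 0.10 for the triple mutant (adjusted p = 1.05e-07). Between these 2 genotypes ght5 was 1.55-fold higher in the triple mutant (adjusted p = 0.000246). In ssu72-C13S alone its log2 fold change was 0.21 with a 95% interval of 0.00 to 0.41 and did not pass the threshold (adjusted p = 0.0794), although without the 2 libraries that stood apart it did (adjusted p = 0.00696). It also passed there without ssu72-C13S replicate 3 (0.0489), asp1-H397A replicate 2 (0.0349) or asp1-H397A replicate 3 (0.0380). With the compared genotypes fitted alone it passed at 0.24 (adjusted p = 0.00109).

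ght2, which encodes another glucose transporter of the family, rose in all 3 mutants. The WT libraries held 175, 174 and 199 CPM, those of ssu72-C13S 351, 348 and 311, those of asp1-H397A 353, 378 and 327, and those of the triple mutant 228, 258 and 229. The single mutants overlapped each other, and the triple mutant lay between them and WT without touching either. The rise was 1.84-fold in ssu72-C13S (adjusted p = 8.32e-07), 1.93-fold in asp1-H397A (adjusted p = 1.10e-06) and 1.31-fold in the triple mutant (adjusted p = 0.00112). The single mutants differed by 0.07 on the log2 scale, with a 95% interval of -0.10 to 0.24 and an adjusted p of 0.500; with upper-quartile scaling the sign was the opposite, at -0.10.

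ght8 was the most abundant of the family. Its levels were 989, 956 and 1023 CPM in WT, 1408, 1412 and 1311 in ssu72-C13S cells, 1068, 1159 and 959 in asp1-H397A cells and 1027, 1203 and 1279 in the triple mutant. All ssu72-C13S libraries exceeded every other library, and asp1-H397A overlapped WT. The log2 fold change was 0.48 ± 0.09 in ssu72-C13S (SE; adjusted p = 0.000486). In asp1-H397A it was 0.10 with a 95% interval of -0.09 to 0.29 (adjusted p = 0.360), -0.0436 with upper-quartile scaling, and 0.17 without the 2 libraries that stood apart, where it passed the threshold (adjusted p = 0.00815). In the triple mutant it was 0.24 ± 0.09 (adjusted p = 0.0351), a call that was lost in 10 of the alternative fits, with adjusted p of 0.0546 to 0.160. Those 10 left out WT replicate 1, 2 or 3, asp1-H397A replicate 1, or triple mutant replicate 2 or 3, or changed the scaling, the filter or the groups in the fit.

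**Figure D3:**
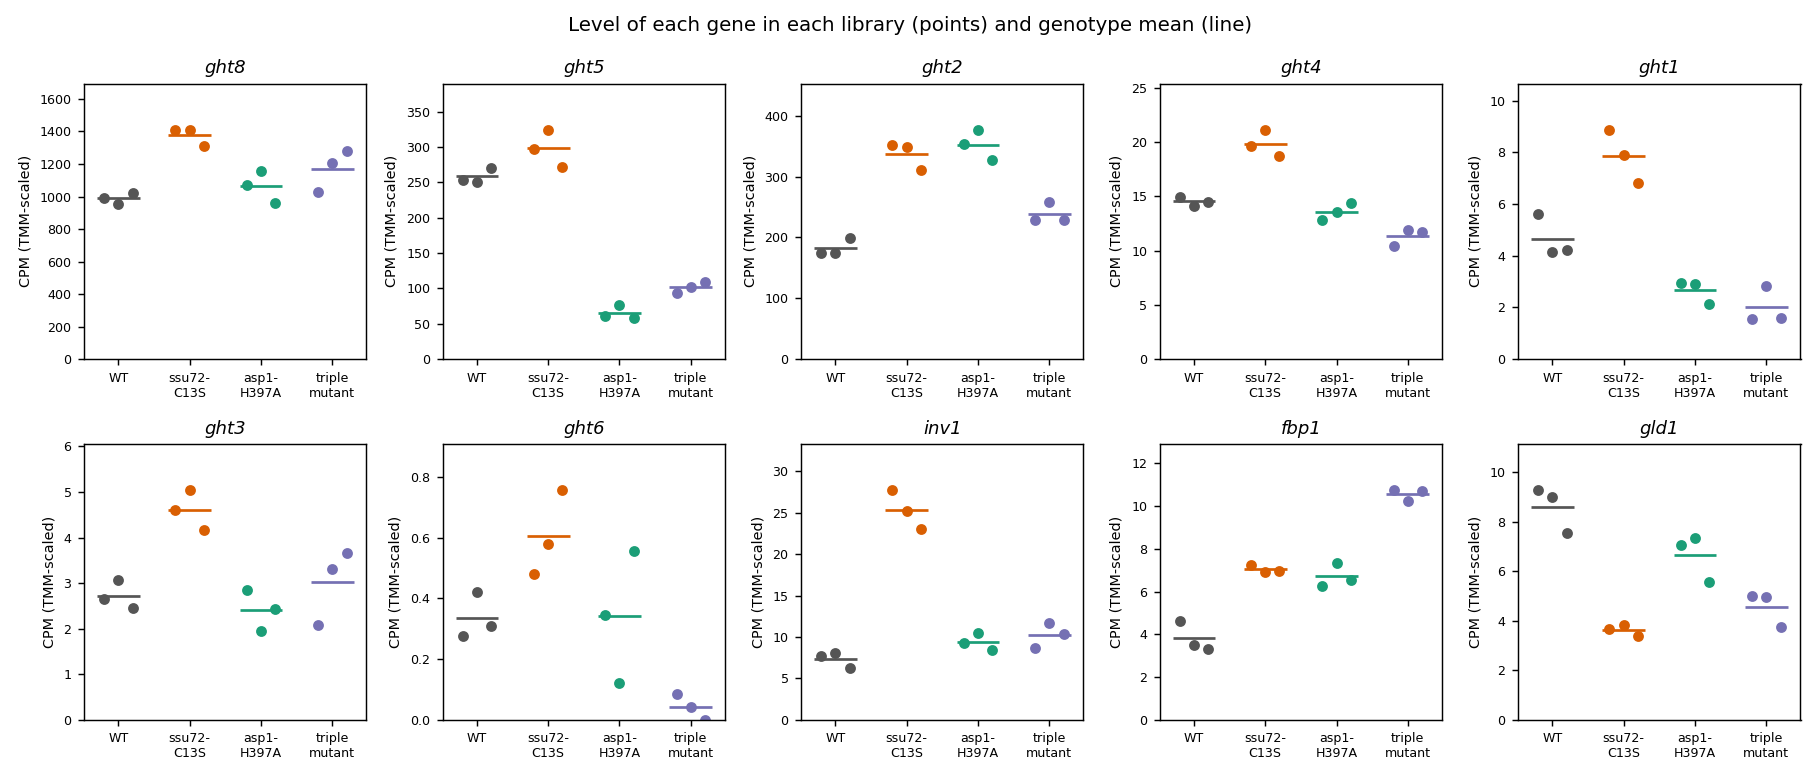
TMM-scaled CPM (vertical axis, from 0 in each panel) of the 10 genes in each of the 12 libraries (points) with the genotype mean (line). ght5 is low in all 6 libraries with asp1-H397A, inv1 is high in the 3 ssu72-C13S libraries, and fbp1 is highest in the 3 triple mutant libraries.

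Of the 4 transporters of low level, ght1, ght3 and ght4 rose in ssu72-C13S cells, and ght6 did not pass the threshold there. ght1 was at 5.61, 4.15 and 4.23 CPM in WT, 8.89, 7.90 and 6.80 in ssu72-C13S cells, 2.95, 2.92 and 2.14 in asp1-H397A cells, and 1.56, 2.84 and 1.58 in the triple mutant. Neither WT nor ssu72-C13S overlapped any other genotype. It rose 1.68-fold in ssu72-C13S (adjusted p = 0.00483) and fell 1.76-fold in asp1-H397A (adjusted p = 0.00767) and 2.33-fold in the triple mutant (adjusted p = 0.000507). The difference between the last 2 genotypes, a log2 value of -0.41, did not pass the threshold (adjusted p = 0.212), but did without triple mutant replicate 2, at -0.75 (adjusted p = 0.0334).

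ght4, a further member of the family, stood at 15.0, 14.1 and 14.5 CPM in WT and 19.6, 21.2 and 18.7 in ssu72-C13S. It stood at 12.8, 13.6 and 14.4 in asp1-H397A cells and at 10.4, 11.9 and 11.7 in the triple mutant. The ssu72-C13S libraries were the highest and the triple mutant libraries the lowest, with no overlap with any other genotype. ght4 rose 1.36-fold in ssu72-C13S (adjusted p = 0.000961) and fell 1.28-fold in the triple mutant (adjusted p = 0.00593). In asp1-H397A its log2 fold change of -0.10 had a 95% interval of -0.30 to 0.10 (adjusted p = 0.412), and with upper-quartile scaling it passed the threshold at -0.24 (adjusted p = 0.0463).

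The gluconate transporter gene ght3 was at 2.65, 3.06 and 2.44 CPM in WT and 4.60, 5.04 and 4.18 in ssu72-C13S. It was at 2.86, 1.95 and 2.42 in asp1-H397A cells and 2.07, 3.31 and 3.66 in the triple mutant. Only ssu72-C13S stood clear of WT, and there it rose 1.69-fold (adjusted p = 0.00402). In asp1-H397A the log2 fold change was -0.18 (95% interval -0.62 to 0.26, adjusted p = 0.495). For the triple mutant it was 0.14 (-0.30 to 0.57, adjusted p = 0.594), and -0.0168 without triple mutant replicate 3.

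ght6, which encodes a transporter known to prefer fructose, was close to the limit of detection. The libraries held 9, 12 and 8 counts in WT, 14, 16 and 21 in ssu72-C13S cells, 8, 3 and 14 in asp1-H397A cells, and 2, 1 and 0 in the triple mutant. Its libraries were below all others. With 29 counts in WT and 3 in the triple mutant, scaled for depth, the ratio of WT to the triple mutant was 7.46 with a 95% interval of 2.31 to 38.3 that covers counting error only. The quasi-likelihood test called the fall (adjusted p = 0.00820). However, ght6 entered all of its tests through ssu72-C13S, where it was highest, so their results are descriptions that support nothing. The log2 values of 0.85 in ssu72-C13S (adjusted p = 0.0964) and 0.04 in asp1-H397A (adjusted p = 0.958) did not pass, and the latter was -0.52 without asp1-H397A replicate 3, -0.10 without WT replicate 1 and -0.00 without WT replicate 3. The former passed without the 2 libraries that stood apart (adjusted p = 0.0474) and with the compared genotypes fitted alone (0.0335).

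The glucose-repressed enzymes did not move as a group. The invertase gene inv1 was at 7.69, 8.13 and 6.25 CPM in WT, 27.7, 25.2 and 23.0 in ssu72-C13S cells, 9.23, 10.5 and 8.38 in asp1-H397A cells, and 8.62, 11.7 and 10.4 in the triple mutant. All ssu72-C13S libraries lay far above every other library, and asp1-H397A and the triple mutant overlapped. inv1 rose 3.44-fold in ssu72-C13S (adjusted p = 2.15e-07). In the triple mutant, which carries the same ssu72 mutation, it rose 1.39-fold (adjusted p = 0.0126), and was 2.47-fold lower than in ssu72-C13S (adjusted p = 2.47e-06). The call in the triple mutant was lost without WT replicate 3 (adjusted p = 0.0632) or triple mutant replicate 2 (adjusted p = 0.0698). In asp1-H397A the log2 fold change of 0.35 did not pass (95% interval 0.04 to 0.65, adjusted p = 0.0618). It passed without asp1-H397A replicate 3 (adjusted p = 0.0216), without triple mutant replicate 1 (0.0383) and without both (0.00556).

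The gluconeogenic gene fbp1 rose in every mutant. Its levels were 4.64, 3.52 and 3.30 CPM in WT, 7.24, 6.92 and 6.95 in ssu72-C13S cells, 6.24, 7.34 and 6.55 in asp1-H397A cells, and 10.7, 10.2 and 10.7 in the triple mutant. The single mutants overlapped each other and lay wholly between WT and the triple mutant. The rise was 1.83-fold in ssu72-C13S (adjusted p = 7.09e-05), 1.75-fold in asp1-H397A (adjusted p = 0.000264) and 2.75-fold in the triple mutant (adjusted p = 6.53e-07). The triple mutant exceeded ssu72-C13S by 1.50-fold (adjusted p = 0.00103) and asp1-H397A by 1.57-fold (adjusted p = 0.00111).

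The glycerol dehydrogenase gene gld1 went the other way, and fell in every mutant. It was at 9.27, 9.01 and 7.53 CPM in WT, 3.67, 3.84 and 3.38 in ssu72-C13S cells, 7.06, 7.34 and 5.56 in asp1-H397A cells, and 4.99, 4.95 and 3.76 in the triple mutant. No mutant library reached the lowest WT library. The fall was 2.37-fold in ssu72-C13S (adjusted p = 9.13e-06) and 1.88-fold in the triple mutant (adjusted p = 0.000144). In asp1-H397A it was 1.30-fold (adjusted p = 0.0424), a call lost in 9 alternative fits with adjusted p of 0.0543 to 0.143. Those 9 included the fit without the 2 libraries that stood apart (0.0806) and fits without WT replicate 1 or 2, asp1-H397A replicate 1 or 3, or any single ssu72-C13S library.

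Set against each other, the mutants differed most between ssu72-C13S and the genotypes with asp1-H397A. In the triple mutant against ssu72-C13S 9 of the 10 genes were called, where 56.3% of all genes were, 8 of them lower (27.5% of all genes), with fbp1 the gene that was higher (28.8%). The 8 include ght6, which entered the test through its level in ssu72-C13S, the genotype compared here, so its call supports nothing. Libraries did not overlap for 9 of the 10 (66.8% of all genes). ght1 was 3.92-fold lower there (adjusted p = 4.73e-06), ght5 2.94-fold lower (adjusted p = 1.84e-08) and ght4 1.75-fold lower (adjusted p = 6.93e-06). The calls of ght8 (log2 -0.24, adjusted p = 0.0359) and ght3 (-0.62, adjusted p = 0.0141) did not hold under every setting: ght8 lost its call in 6 alternative fits (adjusted p 0.0728 to 0.134), 5 of them without ssu72-C13S replicate 1 or 2, asp1-H397A replicate 1, or triple mutant replicate 1 or 2, and ght3 lost its call without ssu72-C13S replicate 2 (0.0548) or triple mutant replicate 1 (0.0615). In asp1-H397A against ssu72-C13S 7 were called, where 54% of all genes were, 6 of them lower (24.3% of all genes), with gld1 the gene that was higher (29.7%), at 1.83-fold (adjusted p = 0.000236). Libraries did not overlap for 7 (61.6% of all genes). ght5 was 4.57-fold lower in this comparison (adjusted p = 8.68e-10), inv1 2.70-fold lower (adjusted p = 1.04e-06) and ght3 1.91-fold lower (adjusted p = 0.00115).

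In the triple mutant against asp1-H397A 6 of the 10 were called, where 36.8% of all genes were: ght5 and fbp1 were higher (15.7% of all genes), and ght2, ght4, ght6 and gld1 lower (21.1%). Of these, ght6 entered the test only through ssu72-C13S and did not pass the filter when the compared genotypes were fitted alone, so its call supports nothing. Libraries did not overlap for 6 (38.4% of all genes). The fall of ght2 was 1.48-fold (adjusted p = 0.000116) and that of gld1 1.45-fold (adjusted p = 0.0124). The call of ght4 (adjusted p = 0.0448) was lost when any 1 of the 12 libraries was left out (adjusted p 0.0569 to 0.154). That of gld1 was lost without asp1-H397A replicate 1 (0.0593), asp1-H397A replicate 2 (0.0509) or triple mutant replicate 3 (0.0524).

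The triple mutant was next compared with the sum of the single mutants on the log2 scale. A departure from that sum contains any effect of the aps1 deletion, which no single mutant carries, so the interaction of the point mutations and the deletion cannot be told apart. The departure was called for 8 of the 10 genes, where 41.9% of all genes were called, 6 of them below the sum (21.8% of all genes) and 2 above it (20.1%). The 6 include ght6, which entered the test through ssu72-C13S, whose level the departure subtracts, so its call supports nothing. For ght2 the single mutants summed to 1.83, the triple mutant was at 0.38, and the departure was -1.45 ± 0.11 (SE; adjusted p = 6.57e-07). For inv1 the sum was 2.13, the triple mutant was at 0.47, and the departure was -1.65 ± 0.20 (adjusted p = 2.31e-05). In both genes the triple mutant thus lay below each called single-mutant rise rather than above it. ght1 departed by -1.16 ± 0.31 (adjusted p = 0.00898), since its rise in ssu72-C13S cells and its fall in asp1-H397A summed to -0.07 and the triple mutant was at -1.22. For ght5 and gld1, the genes above the sum, the sum of the single mutants lay further below WT than the triple mutant did, with departures of 0.43 ± 0.14 (adjusted p = 0.0217) and 0.71 ± 0.21 (adjusted p = 0.0146). fbp1 departed by -0.22, with a 95% interval of -0.60 to 0.16 (adjusted p = 0.340), and ght3 by -0.44, with an interval of -1.05 to 0.17 (adjusted p = 0.232).

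**Figure D4:**
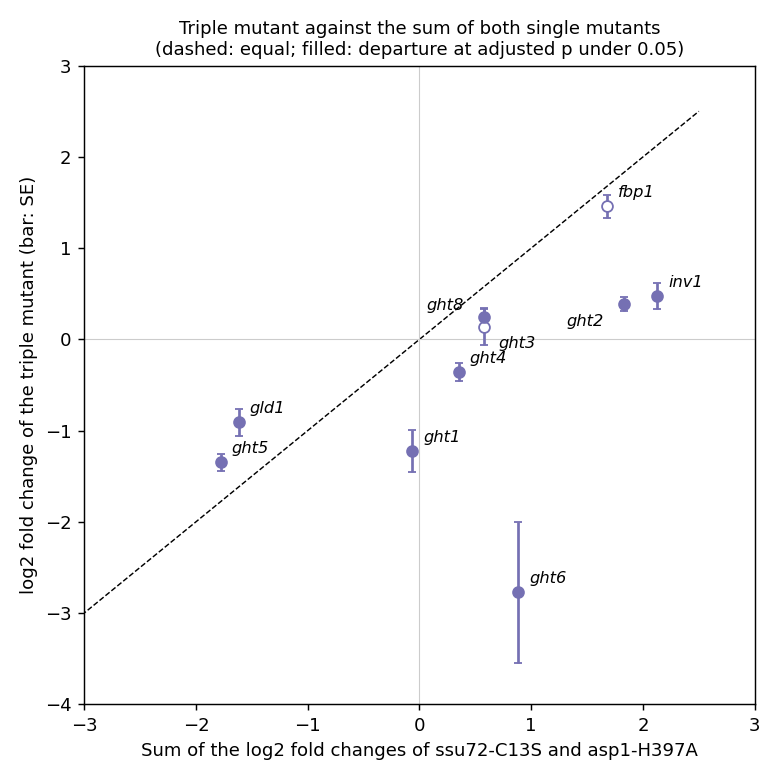
Log2 fold change of the triple mutant against WT (vertical axis, bar: SE) against the summed log2 fold changes of the single mutants (horizontal axis), with the dashed line where they are equal; filled points are called as departures. ght2 and inv1 lie far below the line, with departures of -1.45 and -1.65, fbp1 lies near it, and gld1 and ght5 lie above it.

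The genes beside and across these 10 were examined because the study concerned transcription termination. The RefSeq annotation was used for gene order, and the strand setting of the authors' counting is not given in the sources used here, so reads of a gene and of an antisense partner may not have been told apart. Upstream of ght5, on the same strand, the protein-coding gene SPCC1235.18 moved with it: it was at 3.90, 3.73 and 3.45 CPM in WT, 3.33, 4.20 and 3.20 in ssu72-C13S cells, 0.693, 1.22 and 0.635 in asp1-H397A cells, and 0.761, 0.861 and 1.24 in the triple mutant. The libraries with asp1-H397A did not overlap those without it. SPCC1235.18 fell by 2.12 on the log2 scale in asp1-H397A cells and by 1.97 in the triple mutant (adjusted p = 9.21e-06 and 8.36e-06). Downstream of ght5, dga1, which encodes an acyltransferase of triacylglycerol synthesis, rose by 0.29 in asp1-H397A (adjusted p = 0.00655) and stood at 0.08 in the triple mutant (0.402).

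A pair of non-coding transcripts at inv1 were high in ssu72-C13S. SPNCRNA.1224, which overlaps inv1 on the same strand, held 68, 64 and 67 counts in ssu72-C13S against 12, 9 and 13 in WT, 8, 8 and 5 in asp1-H397A cells and 6, 7 and 6 in the triple mutant. Only ssu72-C13S had all of its libraries over the filter's floor, and no library with asp1-H397A was over it. It thus entered the table of tested genes through the genotype where it was high, and its values are given with no test. Because it shares a strand and bases with inv1, reads of these genes could have been assigned to either. SPNCRNA.1223, upstream of inv1 on the opposite strand, held 20, 22 and 27 counts in ssu72-C13S cells and 0 to 5 in every other library. It too is given with no test, since only the ssu72-C13S libraries were over the floor. Downstream, the pseudogene SPCC1450.01c on the opposite strand rose by 0.47 in ssu72-C13S cells and by 0.64 in the triple mutant (adjusted p = 0.0156 and 0.00280).

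At fbp1, the non-coding fbp1-ot3, which lies just upstream on the same strand, was at 2.10, 2.15 and 2.52 CPM in WT and 2.92, 3.19 and 2.77 in ssu72-C13S. It was at 3.73, 4.22 and 3.85 in asp1-H397A cells and 4.73, 4.91 and 7.12 in the triple mutant, so that its genotypes stood in the order of the list without overlap. It rose by 0.81 on the log2 scale in asp1-H397A (adjusted p = 0.00179) and by 1.30 in the triple mutant (2.00e-05), while the 0.39 of ssu72-C13S did not pass (0.0672). The antisense SPNCRNA.1324 across fbp1 fell by 0.57 in asp1-H397A (adjusted p = 0.0124), and downstream tfg2, a subunit gene of the general factor TFIIF, rose by 0.39 in ssu72-C13S (adjusted p = 0.00195). At gld1, the divergent SPNCRNA.801 fell with it in ssu72-C13S cells, by 0.70 (adjusted p = 0.00445), and in the triple mutant, by 0.92 (adjusted p = 0.00100), and was at -0.15 in asp1-H397A (adjusted p = 0.487).

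**Figure D5:**
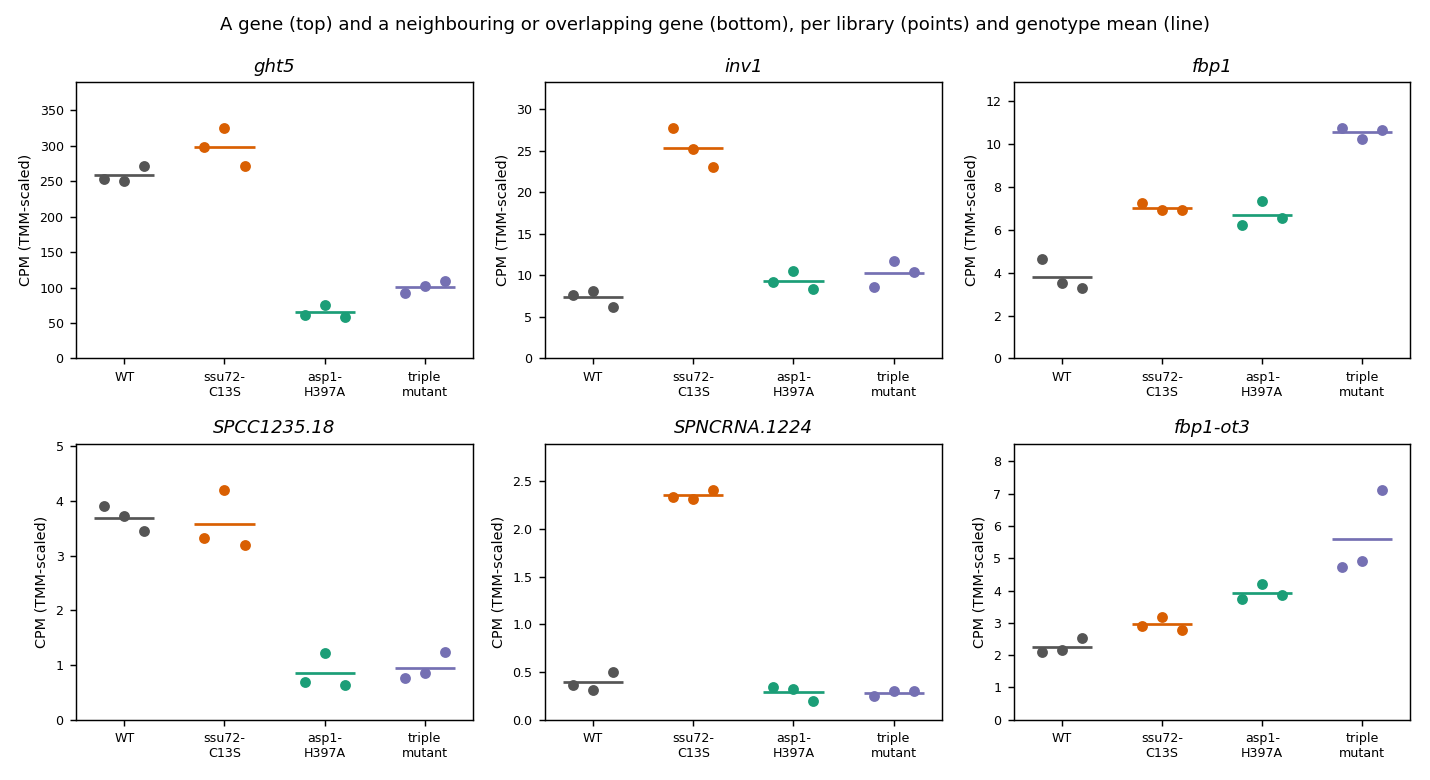
TMM-scaled CPM (vertical axis, from 0) in each library (points) with the genotype mean (line) for ght5, inv1 and fbp1 (top) and, below each, the upstream SPCC1235.18, the overlapping SPNCRNA.1224 and the upstream fbp1-ot3. SPCC1235.18 is low in the 6 libraries with asp1-H397A, as ght5 is, and SPNCRNA.1224 is high in the 3 ssu72-C13S libraries, where it holds 64 to 68 counts.

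Downstream of ght4, on the opposite strand, lies frp1, which encodes a ferric-chelate reductase. It rose by 2.20 on the log2 scale in ssu72-C13S (adjusted p = 8.56e-10), fell by 1.51 in asp1-H397A (adjusted p = 3.15e-07) and fell by 0.27 in the triple mutant (adjusted p = 0.0358). Of the antisense transcripts across ght4, SPNCRNA.1319 rose by 0.73 in ssu72-C13S cells and by 0.55 in the triple mutant (adjusted p = 0.00257 and 0.0161), and SPNCRNA.1318 fell by 1.19 in asp1-H397A cells and by 1.13 in the triple mutant (adjusted p = 7.46e-05 and 7.45e-05). Across ght1, the antisense SPNCRNA.1121 was at 0.684 ± 0.127 CPM (SD, n = 3) in ssu72-C13S and at 0.171 ± 0.169 in WT. Only ssu72-C13S had all of its libraries over the filter's floor for it. Between ght1 and ght8, SPNCRNA.1120 was at 0.774 ± 0.126 CPM in WT, 0.464 ± 0.165 in ssu72-C13S, and under the floor in every library with asp1-H397A. Both are given with no test. On the upstream side of ght1, SPCC1529.01 fell by 0.43 in the triple mutant (adjusted p = 0.00288). Beside ght3, shu1, which encodes a haem-binding surface protein, held 35, 35 and 32 counts in ssu72-C13S and 13, 9 and 9 in WT. It held 27, 24 and 4 in the triple mutant, where 1 library was below all of WT, and 2, 4 and 4 in asp1-H397A, and no test is given since it passed the filter mainly through ssu72-C13S. Around ght6, mug146 rose by 0.92 in ssu72-C13S cells and fell by 1.00 in the triple mutant (adjusted p = 0.00246 and 0.00752), and SPCC1235.17 fell by 0.37 in ssu72-C13S (adjusted p = 0.0422). The genes next to ght2 passed the threshold in no mutant.

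The regulators of glucose repression were read from lists, whose counts are set against 25.5% of all genes higher and 29.1% lower in ssu72-C13S, 25.8% and 18.6% in asp1-H397A, and 26.2% and 25.7% in the triple mutant. No list was refitted under the alternatives. Upper-quartile scaling moved the median of all genes in asp1-H397A from -0.00 to -0.15, so list counts and medians there may depend on the scaling. Of 10 genes of glucose sensing and the cAMP pathway 5 rose and 1 fell in ssu72-C13S cells, 6 rose in asp1-H397A cells and 4 rose in the triple mutant. The list medians were 0.13, 0.36 and 0.16 against medians of all genes of -0.04, -0.00 and -0.01. git5, the beta subunit gene of the glucose-sensing G protein, rose by 1.08 in ssu72-C13S (adjusted p = 2.33e-06). pka1, the catalytic subunit gene of protein kinase A, rose there by 0.79 (adjusted p = 2.48e-06). cgs1, which encodes the inhibitory subunit of that kinase, rose by 0.66 in asp1-H397A cells and 0.95 in the triple mutant (adjusted p = 0.00149 and 5.42e-05). gpa2, the alpha subunit gene, rose in all 3 mutants, by 0.42, 0.63 and 0.49, and the glucose receptor gene git3 rose by 0.51 in asp1-H397A cells and 0.28 in the triple mutant. Both arms of the pathway, activating and inhibitory, were thus among the genes that rose.

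Of 14 genes of the AMP-activated kinase and of transcription regulators, 3 rose and 6 fell in ssu72-C13S cells, 10 rose and 1 fell in asp1-H397A cells, and 5 rose and 3 fell in the triple mutant. The list medians were -0.11, 0.32 and 0.09, against -0.04, -0.00 and -0.01 for all genes. The 9 called in ssu72-C13S and the 8 called in the triple mutant stand beside 54.7% and 51.9% of all genes. scr1, the gene of the repressor, fell by 0.59 in ssu72-C13S (adjusted p = 0.000147), where inv1 and fbp1 rose and gld1 fell. The other genes with the widest changes there were pcr1, a partner gene of the stress factor Atf1, at -0.53, and php3, a subunit gene of the CCAAT-binding complex, at 0.53, both called. In asp1-H397A php2 of the same complex rose by 0.52, the kinase gene ssp1, whose product activates Ssp2, by 0.46 and the corepressor gene tup11 by 0.46. php3 and ssp1 rose by 0.59 and 0.54 in the triple mutant, where pcr1 fell by 0.51.

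Ght5 protein is kept at the cell surface by the TORC2 and Gad8 kinases, which restrain the arrestin Aly3. Of 8 genes of this route 3 rose and 2 fell in ssu72-C13S cells, 5 rose in asp1-H397A cells and 2 rose and 1 fell in the triple mutant, with medians of 0.05, 0.15 and -0.03. The 5 called in ssu72-C13S are near the 54.7% of all genes called there. The 0.15 of asp1-H397A was not refitted with upper-quartile scaling, where the median of all genes was -0.15. aly3 itself rose in all 3, by 0.40, 0.22 and 0.30 (adjusted p = 0.000765, 0.0409 and 0.00593). Its asp1-H397A libraries, at 97.4 to 121 CPM, overlapped those of WT, at 91.6 to 103. ksg1, the gene of a kinase that activates Gad8, rose by 0.58 in asp1-H397A cells and 0.48 in the triple mutant. bit61, a TORC2 subunit gene, fell by 0.47 in ssu72-C13S cells and by 0.34 in the triple mutant, and gad8 rose by 0.29 in ssu72-C13S. RNA levels do not measure the transporter protein or its place in the cell.

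Of 17 other genes of sugar and polyol use 6 rose and 4 fell in ssu72-C13S cells, 5 rose and 4 fell in asp1-H397A cells, and 3 rose and 8 fell in the triple mutant, with medians of 0.23, -0.03 and -0.08. Of all genes, 54.7%, 44.4% and 51.9% were called in these mutants. Among the 17 were genes of glycerol use, picked after their values were seen. dak2, a dihydroxyacetone kinase gene that acts one step after Gld1, fell by 1.48, 0.37 and 0.66 in ssu72-C13S cells, asp1-H397A and the triple mutant, and gut2, a glycerol-3-phosphate dehydrogenase gene, fell by 1.16, 0.40 and 1.58. dak1, the other dihydroxyacetone kinase gene, fell by 0.33 in ssu72-C13S but rose by 0.41 in asp1-H397A. The hexokinase gene hxk2 rose by 0.30, 0.78 and 1.16 in these mutants. agl1, an alpha-glucosidase gene, rose by 1.15 in ssu72-C13S (adjusted p = 2.86e-07) beside the rise of inv1. The gene gal10 of galactose use fell by 1.17 in asp1-H397A (adjusted p = 0.000497), and tms1, the gene of a polyol-type dehydrogenase, rose there by 0.54 (adjusted p = 0.00196). ght7, a further gene named as a hexose transporter, and the galactosidase gene mel1 are among the genes that fell in the triple mutant, where all libraries were under the filter's floor: their highest levels there were 0.211 and 0.301 CPM, against lowest levels in WT of 0.518 and 0.457 CPM.

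Genes of other cell states moved too. Of all genes, 25.5% were higher and 29.1% lower in ssu72-C13S. The shares were 25.8% and 18.6% in asp1-H397A, and 26.2% and 25.7% in the triple mutant. Of the 10 stress genes 7 rose and 1 fell in ssu72-C13S cells, 1 rose and 5 fell in asp1-H397A cells, and 1 rose and 8 fell in the triple mutant. In ssu72-C13S the calcium pump gene cta3, the chaperone gene hsp16 and the glycerol-3-phosphate dehydrogenase gene gpd1 rose by 1.57, 1.48 and 1.25, all called. hsp9 fell by 1.82 in asp1-H397A cells and by 3.16 in the triple mutant, zym1 fell by 0.53 in asp1-H397A cells, and the catalase gene ctt1 and hsp16 fell by 1.75 and 1.05 in the triple mutant, while gpd1 rose by 0.73 in asp1-H397A. The stress genes thus rose in the genotype in which 7 of the 10 sugar genes rose, and their part in that result was not tested. Of the 8 genes of mating and meiosis 7 fell in ssu72-C13S cells, 4 fell and 1 rose in asp1-H397A cells and 7 fell in the triple mutant. The meiotic regulator gene mei2 fell by 2.51, 0.70 and 1.76 in these mutants. ste11 and mfm1 fell by 1.32 and 1.29 in ssu72-C13S cells, fus1 and map2 by 0.96 and 0.79 in asp1-H397A cells, and mam2 and map2 by 1.31 and 1.13 in the triple mutant.

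Finally, the genes most like each of the 10 across the 12 libraries were looked up among genes with a mean of at least 5 CPM, by the root mean square difference of gene-centred log2 CPM, as a description with no test. For ght5 the nearest were the non-coding SPNCRNA.1206, SPNCRNA.838 and SPNCRNA.1026, at differences of 0.299 to 0.330, where the SD of ght5 itself over the libraries was 0.967. The nearest to ght2 were gas5, pit1 and erg31 at 0.110 to 0.148, and to ght8 gpi10, vps68 and gtr2 at 0.0527 to 0.0590. inv1 was nearest to SPBC12C2.04, SPAC23C11.06c and plr1 at 0.170 to 0.181, fbp1 to SPCC1020.07, arf6 and car1 at 0.153 to 0.165, and gld1 to SPNCRNA.1083, tbc1 and spk1 at 0.149 to 0.173. For ght4 they were isp6, mcp3 and SPAC5H10.05c at 0.104 to 0.108, for ght3 SPBC557.05, SPNCRNA.1351 and SPCC61.04c at 0.184 to 0.206, and for ght1 SPNCRNA.1626, SPNCRNA.687 and SPAC22F8.05 at 0.277 to 0.300. ght6, at few counts, had SPNCRNA.612, SPAC977.14c and SPCP20C8.02c at 0.451 to 0.494. ght1, ght3 and ght6 had means under 5 CPM and so could not be listed as nearest to any gene. None of the others was among the 3 nearest to another of the 10.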

How the data were processed

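Poly(A)+ RNA was purified with hot acid phenol and sequenced as paired ends from libraries of a stranded mRNA kit, per the labels' protocols. The authors deposited a table of unnormalized counts of reads for each gene, in which every library has its own column. The submitters' processing notes name HISAT2 2.1.0, SAMtools, HTSeq 0.10.0, DESeq2 and build ASM294v2. The annotation and the strand setting are not given in the sources used here. The authors' own comparisons were not used here.

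Of 6987 rows, 1 was dropped as a second row of an identifier with 0 counts, and 320 genes had 0 counts throughout. Genes were matched to RefSeq (ASM294v3), 6833 by locus tag and 13 by synonym, for names, gene order, spliced length and shared stretches of 50 bases only. Because the builds differ, no coordinates or sequences are given.

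Counts were filtered with filterByExpr (minimum count 10), scaled by TMM (factors 0.847 to 1.13) and fitted over 12 libraries with edgeR 4.0.16 (glmQLFit, legacy option; glmQLFTest) in R 4.3.3, with no block. P-values were adjusted by Benjamini-Hochberg over 6189 genes. The SE is the log2 fold change divided by the square root of F. The code was tested on simulated data. DESeq2 1.42.0, other scalings, filters, groups and left-out libraries were alternatives. The 10 genes and all lists were chosen with earlier results of these data known, so no pattern is independent support. From each list up to 3 genes with the widest called change against WT were named, and neighbours where called against WT. SPNCRNA.1118, other values of list genes, and dak1 were picked after they were seen. Intervals cover counting or replicate error only.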

Additional observations from a re-analysis of the deposited data

Results flagged for a closer look

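For 8 of the 10 genes the triple mutant departed from the sum of the single mutants on the log2 scale by a test of the difference itself (edgeR's quasi-likelihood test, adjusted over all genes), where 41.9% of all genes did. The departures below the sum were those of ght6 (-3.66 ± 0.89, SE, adjusted p = 0.00478), inv1 (-1.65 ± 0.20, 2.31e-05), ght2 (-1.45 ± 0.11, 6.57e-07), ght1 (-1.16 ± 0.31, 0.00898), ght4 (-0.71 ± 0.13, 0.000779) and ght8 (-0.34 ± 0.13, 0.0439). Those above it were gld1 (0.71 ± 0.21, 0.0146) and ght5 (0.43 ± 0.14, 0.0217). The value of ght6 rests on 3 counts in the triple mutant, and ght6 entered the test through ssu72-C13S, whose level this departure subtracts, so it is a description that supports nothing. The call of ght8 was lost in 14 alternative fits, with adjusted p of 0.0505 to 0.144, including every fit without 1 library of WT or of ssu72-C13S and those without asp1-H397A replicate 1 or 2 or triple mutant replicate 1 or 2. That of ght5 was lost without WT replicate 3, ssu72-C13S replicate 3, asp1-H397A replicate 1, or triple mutant replicate 2 or 3, with adjusted p of 0.0552 to 0.0862. Each departure contains any effect of the aps1 deletion, which cannot be told apart from the interaction of the point mutations.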

How the results depend on the processing

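The number of genes called among the 10 stayed within 1.5 times its value under every alternative, except in the triple mutant against asp1-H397A. There, fitting the compared groups alone gave 3 of the 9 tested against 6 of 10 (1163 against 2277 over all genes). In that fit ght6 did not pass the filter, and ght4 (adjusted p = 0.191) and gld1 (0.0673) lost their calls. The cause of the fall over all genes was not tested. Leaving out 1 library gave 8 to 9 for ssu72-C13S against WT, 4 to 6 for asp1-H397A, 7 to 9 for the triple mutant, 7 to 10 for it against ssu72-C13S, 4 to 7 against asp1-H397A, 7 to 8 for asp1-H397A against ssu72-C13S and 6 to 8 for the departure. Direction turned, with no call on either side, for ght6 in asp1-H397A against WT (-0.10 with upper-quartile scaling, -0.52 without the 2 libraries that stood apart, -0.52 to 0.44 over fits without 1 library, below 0 without WT replicate 1, WT replicate 3 or asp1-H397A replicate 3), for ght8 there (-0.0436, upper-quartile), for ght2 in asp1-H397A against ssu72-C13S (-0.10, upper-quartile) and for ght3 in the triple mutant (-0.0168 without its replicate 3, and up to 0.35 without another library). Upper-quartile scaling moved the median of all genes in asp1-H397A against WT from -0.00 to -0.15, and the higher share of calls from 58.1% to 32.2%. Without the 2 libraries that stood apart, all genes called in that comparison went from 2747 to 4537. Replicate numbers did not pair the libraries: 5 of 18 same-numbered pairs correlated above 0.1 (range -0.43 to 0.32), and 5 of 12 libraries correlated best with their own number. With the replicate number as a block, the counts of called genes were 8, 6 and 9 for the mutants against WT, with inv1 gained in asp1-H397A (adjusted p = 0.0460). Depth limits ght6 most.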
